A study of Mus musculus with 6 samples.

Results

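The Kruppel-like factors (KLFs) are zinc finger transcription factors, and the 10 KLF genes described here are *Klf2*, *Klf3*, *Klf4*, *Klf6*, *Klf7*, *Klf9*, *Klf10*, *Klf11*, *Klf13* and *Klf16*. They were taken by gene symbol from a table of 22248 genes measured in resting bone-marrow-derived macrophages (BMDMs), cells that grow out of bone marrow in medium with macrophage colony-stimulating factor. The table lists 15 of the 17 annotated *Klf* genes, and the 10 are those with a mean of at least 1 FPKM (fragments per kilobase of transcript scaled to library size). All 10 were at or above 1 FPKM in every library. Libraries came from *Lyz2cre* mice (control, n = 3) and from *Cited2* fl/fl:*Lyz2cre* mice (CITED2-deficient, n = 3), all C57BL/6. Mice of both groups carry Cre recombinase at the *Lyz2* locus, which is active in macrophages, neutrophils and their precursors, and those of the second group also carry floxed *Cited2* on both alleles. The labels give an age of 10 postnatal weeks for every sample, whereas the methods of the study state a younger age for the marrow donors. CITED2 is a transcriptional regulator that binds the coactivators CBP and p300, and the comparison asks how resting macrophages differ when it is lost. The labels do not tie a library to a mouse, so the p-values measure the spread between these libraries.

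KLF proteins bind GC-rich DNA, chiefly GC boxes and CACCC boxes, through zinc fingers at the carboxy terminus that are nearly alike across the family. The amino-terminal parts differ and sort the family into groups. KLF2, KLF4, KLF6 and KLF7 belong to the group of mostly activating factors that work with histone acetyltransferases, KLF3 represses by recruiting CtBP, and KLF9, KLF10, KLF11, KLF13 and KLF16 recruit the SIN3 corepressor. In macrophages KLF2 is known for restraining inflammatory genes, KLF4 for monocyte differentiation and alternative activation, and KLF6 for promoting inflammatory genes. Several KLF genes are themselves induced quickly, by the ERK5 kinase with MEF2 factors, by glucocorticoids or by TGF-beta.

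The DNA just upstream of the genes with the largest falls (*Klf2* and *Klf3*) and of a pair of genes that rose (*Klf9*, with the largest rise, and *Klf4*) is printed here because KLF proteins can bind the promoters of KLF genes. The stretches come from the RefSeq promoter table (GRCm38.p6, 8 of the 10 genes matched, with *Klf10* and *Klf16* missing). They run 5′ to 3′ on the strand of the gene and reach no further than the first annotated transcript start. They are chr8:72318812-72319032 on the plus strand for *Klf2*, chr5:64803271-64803387 on the plus strand for *Klf3*, chr19:23140976-23141225 on the plus strand for *Klf9* and chr4:55532476-55532725 on the minus strand for *Klf4*. Capitals mark the GC box (GGGCGG), the CACCC box (CACCC) and the MEF2 motif, each searched on both strands, with overlapping matches counted.
Klf2: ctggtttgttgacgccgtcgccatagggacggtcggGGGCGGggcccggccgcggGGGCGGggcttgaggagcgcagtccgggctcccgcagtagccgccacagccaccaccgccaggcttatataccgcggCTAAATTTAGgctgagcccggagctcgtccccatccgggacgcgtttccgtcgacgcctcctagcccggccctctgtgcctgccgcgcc
Klf3: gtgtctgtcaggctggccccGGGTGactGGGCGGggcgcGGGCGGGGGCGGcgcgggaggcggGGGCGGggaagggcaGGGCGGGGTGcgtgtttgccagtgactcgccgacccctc
Klf9: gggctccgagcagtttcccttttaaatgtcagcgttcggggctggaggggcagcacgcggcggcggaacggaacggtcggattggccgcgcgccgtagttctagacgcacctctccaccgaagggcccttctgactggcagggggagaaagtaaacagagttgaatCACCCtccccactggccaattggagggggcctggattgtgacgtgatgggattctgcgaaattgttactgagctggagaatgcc
Klf4: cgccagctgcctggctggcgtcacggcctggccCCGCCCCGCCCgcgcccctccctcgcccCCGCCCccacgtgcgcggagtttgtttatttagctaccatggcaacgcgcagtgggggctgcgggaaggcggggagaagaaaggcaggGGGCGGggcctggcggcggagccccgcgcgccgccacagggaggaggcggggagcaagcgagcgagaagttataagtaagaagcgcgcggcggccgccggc

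The *Klf3* stretch, although the shortest, held 5 GC boxes and 2 CACCC boxes. The *Klf4* stretch held 4 GC boxes and the *Klf2* stretch 2, while the *Klf9* stretch held none and had 1 CACCC box. Over the 250 bases before the RefSeq start, a GC box was found for 7 of the 8 matched genes, against 32.7% of all 32851 promoters in the table. For some genes, such as *Klf3* and *Klf7*, this window runs past the first annotated transcript start. A CACCC box was found for 5 of 8, against 52.0% of all promoters. A MEF2 motif was found only for *Klf2*, 118 to 109 bases before its start and written CTAAATTTAG, against 2.92% of all promoters. These matches describe letters and do not show binding.

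*Cited2* itself averaged 75.5 ± 3.79 FPKM (SD, n = 3) in control libraries and 8.01 ± 1.10 FPKM (SD, n = 3) in those labelled CITED2-deficient, and its level fitted the label of every library. The libraries held 17289286 to 26100410 fragments, and the CITED2-deficient libraries were on average 1.34 times as deep. Summed FPKM of 6 macrophage markers, such as *Csf1r* and *Adgre1*, was 5288 to 5344 in control and 4942 to 5040 in CITED2-deficient libraries, so macrophage genes were abundant in both. Of the 6, *Adgre1*, *Csf1r*, *Mertk* and *Itgam* were called lower and *Fcgr1*, an Fc receptor gene, higher (172 ± 0.793 against 482 ± 17.2 FPKM, SD, n = 3 each). The rise of *Fcgr1* offset these falls only in part, and every CITED2-deficient sum was below every control sum. Stromal markers, mainly collagens, rose, with all 6 that could be tested called higher, although *Pdgfrb* passed the filter on low values only through the CITED2-deficient libraries. Their sum was 42.0 to 50.1 FPKM in control libraries and 539, 170 and 171 FPKM in CITED2-deficient replicates 1 to 3. The summed endothelial markers, led by the receptor gene *Kdr*, were 12.4 to 14.3 against 38.6 to 43.1 FPKM, and the granulocyte markers, carried by *S100a8* and *S100a9*, 590 to 635 against 544 to 657 FPKM. Of the latter, *Elane*, *Mpo*, *Camp* and *S100a8* were called lower and *Ltf* higher. T or NK cell, B cell, erythroid, mast cell and dendritic cell markers summed to at most 7.77 FPKM in any library, with no listed marker of these lists at 0 in all libraries. The part of the stromal, endothelial and granulocyte signal in the results below was not tested, and in bulk RNA fewer cells of a type and less RNA per cell cannot be told apart. Without CITED2-deficient replicate 1, the library with the highest stromal sum, 5 KLF genes remained called higher and 4 lower. The CITED2-deficient replicates 2 and 3 still had stromal sums of 170 and 171 FPKM, above every control library. That fit therefore keeps the stromal difference and does not test it.

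All 10 KLF genes differed between the genotypes (limma on log2(FPKM + 1), Benjamini-Hochberg adjusted p under 0.05). *Klf4*, *Klf6*, *Klf7*, *Klf9*, *Klf10* and *Klf13* were higher in CITED2-deficient BMDMs, and *Klf2*, *Klf3*, *Klf11* and *Klf16* were lower. The background is high, since 51.3% of the 11687 tested genes were called. The 6 rises (60% of the KLF genes) stand against 16.7% of all tested genes called higher, while the 4 falls (40.0%) are near the 34.6% called lower. In all 10 the libraries of the groups did not overlap, against 59.9% of tested genes (19.0% with the CITED2-deficient libraries higher and 40.9% with them lower). Changes were modest, from -0.53 for *Klf2* to 0.57 for *Klf9* on the log2 scale. The median size of change, leaving out its sign, was 0.31 for the KLF genes and 0.20 for all tested genes. The typical tested gene was itself slightly lower (median log2 fold change -0.10), so directions were also read after median-ratio scaling, which moves that median to -0.01. With it all 10 genes were still called, the same 6 higher and the same 4 lower, beside 44.5% of all tested genes called, 22.5% higher and 22.0% lower.

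**Figure D1:**
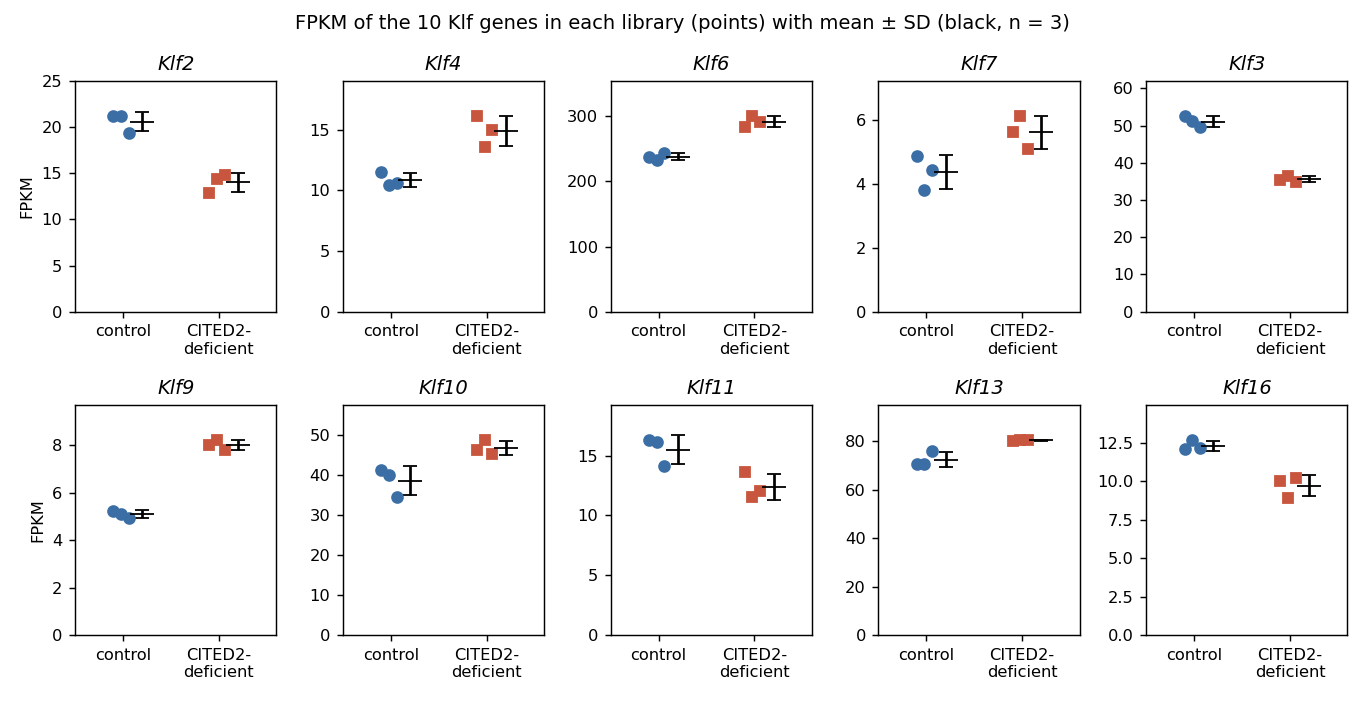
FPKM of the 10 KLF genes in each library, with 3 control and 3 CITED2-deficient points and the group mean for each gene. For every gene the points of the groups are apart, from *Klf7* at 3.80 to 6.11 FPKM to *Klf6* at 233 to 300 FPKM.

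Among the activating group, *Klf6* was by far the most abundant. KLF6 promotes inflammatory gene expression in macrophages, and its gene lies on the plus strand of chromosome 13 (5861482 to 5870394 in mm10). *Klf6* stood at 238, 233 and 243 FPKM in control replicates 1 to 3 and at 284, 300 and 291 FPKM in CITED2-deficient replicates 1 to 3. Every CITED2-deficient library was above every control library, and the gap was wider than the spread within either group. The means were 238 ± 5.04 and 292 ± 8.20 FPKM (SD, n = 3 each). *Klf6* rose by a log2 fold change of 0.29 (SE 0.03, 95% interval 0.22 to 0.36, limma adjusted p = 6.02e-05). With 8247 to 15559 recovered fragments per library, it was the most deeply counted of the 9 KLF genes with whole fragment numbers.

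*Klf2* moved the other way. KLF2 keeps T cells and endothelial cells quiescent and restrains NF-κB-driven genes in myeloid cells, and its short gene lies on the plus strand of chromosome 8 (72319033 to 72321656). Control libraries had 21.2, 21.2 and 19.4 FPKM of *Klf2*, and CITED2-deficient libraries had 12.9, 14.4 and 14.8 FPKM. The lowest control library was well above the highest CITED2-deficient library. *Klf2* thus fell from 20.6 ± 1.02 to 14.0 ± 1.01 FPKM (SD, n = 3 each). The log2 fold change was -0.53 (SE 0.07, 95% interval -0.67 to -0.38, limma adjusted p = 0.000160), and -0.44 after median-ratio scaling.

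*Klf4*, a close relative of *Klf2*, lies on the minus strand of chromosome 4 (55527143 to 55532466). It stood at 11.5, 10.4 and 10.6 FPKM in control libraries and at 16.1, 13.6 and 15.0 FPKM in CITED2-deficient libraries. The groups were apart, with a wider spread among the CITED2-deficient libraries, where replicate 1 was the highest. *Klf4* rose by a log2 fold change of 0.43 (SE 0.07, 95% interval 0.26 to 0.59, limma adjusted p = 0.00119). Without CITED2-deficient replicate 1 the log2 fold change was 0.37 (limma adjusted p = 0.00449).

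Because *Klf2* and *Klf4* moved in opposite directions, their ratio within a library, which a single scaling factor per library cannot alter, changed more than either gene. The FPKM of *Klf4* over that of *Klf2* was 0.544, 0.489 and 0.545 in control replicates 1 to 3. It was 1.25, 0.945 and 1.01 in CITED2-deficient replicates 1 to 3. *Klf2* was therefore the higher of the pair in every control library, while the genes were at about equal FPKM in the CITED2-deficient libraries. That near equality rests on the mean transcript lengths. With the longest transcript of each gene, the ratio was 0.237 to 0.265 in control and 0.459 to 0.609 in CITED2-deficient libraries, so *Klf2* stayed above *Klf4* in both. The pair was chosen after its values were seen.

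*Klf7*, a relative of *Klf6* studied mainly in neurons and fat cells, was the least abundant of the 10 and the least secure call. It lies on the minus strand of chromosome 1 (64029447 to 64122282). It stood at 4.86, 3.80 and 4.43 FPKM in control libraries and at 5.63, 6.11 and 5.08 FPKM in CITED2-deficient libraries. The groups did not overlap, but the highest control and the lowest CITED2-deficient library were close. *Klf7* rose by a log2 fold change of 0.30 (SE 0.10, 95% interval 0.07 to 0.54, limma adjusted p = 0.0352). The call was lost with no filter on low values (limma adjusted p = 0.0981) and with the replicate number as a block (limma adjusted p = 0.0550). It was also lost without control replicate 2 (limma adjusted p = 0.106), without control replicate 3 (limma adjusted p = 0.0680), without CITED2-deficient replicate 1 (limma adjusted p = 0.0780) or without CITED2-deficient replicate 2 (limma adjusted p = 0.118). *Klf7* also shares 3196 exonic bases with *Gm26649*, a long noncoding RNA gene on the opposite strand, and whether the counting used strand is not stated.

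*Klf3* represents the repressors that act through CtBP. KLF3 silences genes in erythroid, B and fat cells, among them the gene of its relative KLF8, and *Klf3* lies on the plus strand of chromosome 5 (64803388 to 64832901). Control libraries had 52.5, 51.1 and 49.6 FPKM and CITED2-deficient libraries had 35.4, 36.5 and 34.9 FPKM. Both groups were tight and far apart. *Klf3* fell from 51.0 ± 1.48 to 35.6 ± 0.774 FPKM (SD, n = 3 each), which is 0.697 times the control level. Its log2 fold change was -0.51 (SE 0.04, 95% interval -0.60 to -0.42, limma adjusted p = 7.42e-06), the smallest p among the 10. *Gm20033*, a gene on the opposite strand that shares 404 exonic bases with *Klf3*, was at 0.678 to 2.36 FPKM, far under *Klf3*.

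Of the 5 genes of the group that recruits SIN3, *Klf9*, *Klf10* and *Klf13* were higher and *Klf11* and *Klf16* lower in CITED2-deficient BMDMs. *Klf9* is a direct target of glucocorticoid and thyroid hormone receptors and lies on the plus strand of chromosome 19 (23141226 to 23168134). It stood at 5.24, 5.12 and 4.92 FPKM in control libraries and at 8.01, 8.22 and 7.81 FPKM in CITED2-deficient libraries. Both groups were narrow and clearly apart. *Klf9* rose to 1.57 times the control level, with a log2 fold change of 0.57 (SE 0.07, 95% interval 0.41 to 0.72, limma adjusted p = 0.000149). Its FPKM did not convert to whole fragments with the annotation used here, so no depth is given for it.

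*Klf10* and *Klf11* are a related pair, both described as early response genes of TGF-beta, and they moved in opposite directions. *Klf10* lies on the minus strand of chromosome 15 (38291463 to 38300706) and stood at 41.2, 40.1 and 34.6 FPKM in control and 46.4, 48.8 and 45.2 FPKM in CITED2-deficient libraries. *Klf11* lies on the plus strand of chromosome 12 (24651274 to 24662789) and stood at 16.3, 16.1 and 14.1 FPKM in control and 13.6, 11.5 and 12.0 FPKM in CITED2-deficient libraries. In both genes control replicate 3 was the lowest control library, nearest to the CITED2-deficient libraries for *Klf11* and farthest from them for *Klf10*. *Klf10* rose by a log2 fold change of 0.27 (SE 0.07, 95% interval 0.13 to 0.42, limma adjusted p = 0.00696). *Klf11* had a log2 fold change of -0.31 (SE 0.08, 95% interval -0.49 to -0.13, limma adjusted p = 0.00952). After median-ratio scaling *Klf11* stayed under the threshold only narrowly (-0.22, limma adjusted p = 0.0423).

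*Klf13*, which in T cells drives the chemokine gene *Ccl5*, had the smallest change. It lies on the minus strand of chromosome 7 (63886351 to 63938915) and stood at 70.4, 70.7 and 75.8 FPKM in control libraries. The CITED2-deficient libraries, at 80.0, 80.5 and 80.5 FPKM, were nearly equal and all above the control libraries. The log2 fold change was 0.15 (SE 0.04, 95% interval 0.07 to 0.24, limma adjusted p = 0.00871). *Klf16*, a less studied member of the same group, lies on the minus strand of chromosome 10 (80567124 to 80577321). It stood at 12.1, 12.7 and 12.2 FPKM in control libraries and at 10.0, 8.94 and 10.2 FPKM in CITED2-deficient libraries. The control libraries were close together, and all of the CITED2-deficient libraries were lower. *Klf16* fell to 0.789 times the control level, with a log2 fold change of -0.31 (SE 0.07, 95% interval -0.47 to -0.16, limma adjusted p = 0.00379).

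**Figure D2:**
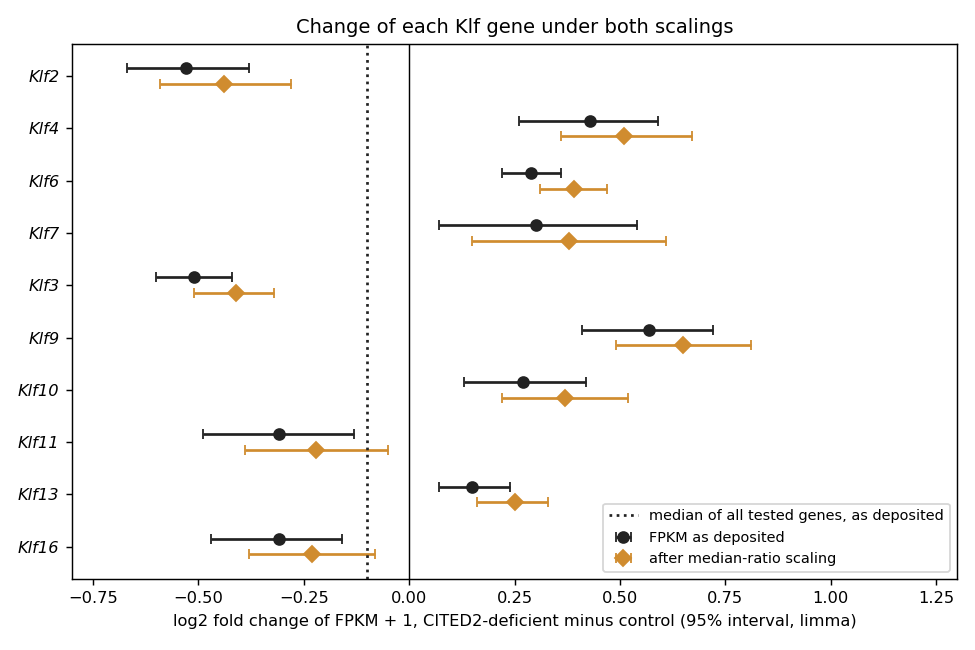
Log2 fold change of each KLF gene (CITED2-deficient minus control, log2(FPKM + 1)) with its 95% interval from limma, for the FPKM as deposited and after median-ratio scaling. The 6 genes above 0 run up to 0.57 for *Klf9* and the 4 below 0 run down to -0.53 for *Klf2*, with each gene on the same side under both scalings.

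FPKM is per length, so levels can be set side by side between genes. In control BMDMs the order of mean FPKM was *Klf6*, *Klf13*, *Klf3*, *Klf10*, *Klf2*, *Klf11*, *Klf16*, *Klf4*, *Klf9* and *Klf7*, and the library ranges of all neighbours in this order were separate. In CITED2-deficient BMDMs *Klf10* (46.8 ± 1.87 FPKM) stood above *Klf3* (35.6 ± 0.774 FPKM), and *Klf4* moved from the eighth place to the fifth. There the ranges of *Klf4* and *Klf2* overlapped, as did those of *Klf2* and *Klf11*, so their order was not resolved. These lengths are means over annotated transcripts, and the middle of the order depends on that choice. With the longest transcript in their place, *Klf10* was above *Klf3* in both genotypes, at rank 4 against 5 in control and 3 against 5 in CITED2-deficient BMDMs. *Klf4* then moved only from rank 8 to rank 7, and *Klf2* was at rank 3 in control and rank 4 in CITED2-deficient BMDMs.

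The summed FPKM of the 10 genes was 473, 464 and 469 in control libraries and 512, 529 and 517 in CITED2-deficient libraries, 1.11 times higher on average. *Klf6* alone made up 50.8 ± 0.949% of the sum in control libraries (SD, n = 3) and 56.2 ± 0.677% in CITED2-deficient libraries (SD, n = 3). The share of *Klf3* was 10.9 ± 0.282% against 6.86 ± 0.0851%, and that of *Klf2* was 4.40 ± 0.225% against 2.70 ± 0.172%. Library shares did not overlap between the groups for 8 of the 10 genes. The exceptions were *Klf13* (15.4 ± 0.664% against 15.5 ± 0.221%) and *Klf7* (0.930 ± 0.106% against 1.08 ± 0.0890%). In FPKM, 59.9% of all tested genes did not overlap, and shares of this sum have no such background of their own. Shares add to a fixed sum, so they are not independent of each other. The mean shares of *Klf4*, *Klf7*, *Klf9* and *Klf10* were also larger in CITED2-deficient BMDMs, and those of *Klf2*, *Klf3*, *Klf11* and *Klf16* were smaller. The shares are given as a description, since 0.1 is the smallest exact permutation p that groups of 3 allow. *Klf10* over *Klf3* was 0.785, 0.785 and 0.699 in control libraries and 1.31, 1.34 and 1.29 in CITED2-deficient libraries, a pair chosen after its values were seen.

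**Figure D3:**
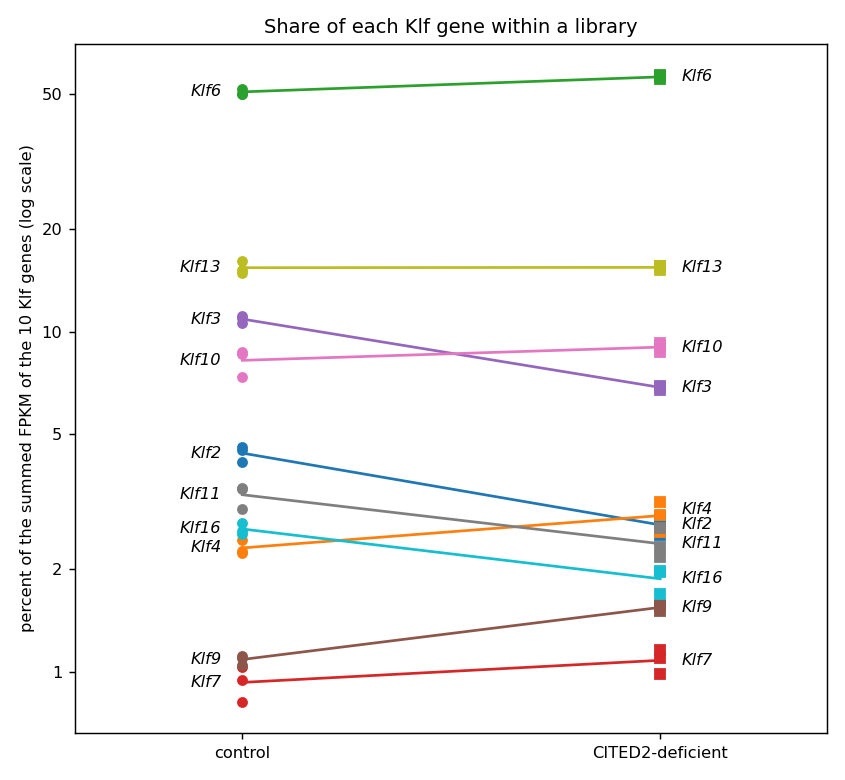
Share of each KLF gene in the summed FPKM of the 10 genes, in percent, per library and as group means. *Klf6* holds the largest share in every library, and *Klf3* drops from 10.9% to 6.86% of the sum.

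The other KLF and SP genes gave few values. SP factors bind the same GC boxes as KLFs and are close relatives. Of 16 genes, 13 were listed, and only *Sp1*, *Sp2*, *Sp3* and *Sp4* passed the filter on low values. *Sp3* was higher, at 40.3 ± 0.523 against 44.4 ± 0.631 FPKM (SD, n = 3 each; log2 fold change 0.14, limma adjusted p = 0.0113). *Sp1* (-0.03, limma adjusted p = 0.607), *Sp2* (0.03, limma adjusted p = 0.673) and *Sp4* (-0.16, limma adjusted p = 0.201) were not called, and the 95% interval of *Sp1* ran from -0.12 to 0.07. The signs of *Sp1* and *Sp2* turned with the scaling or a left-out library. *Klf1*, *Klf5*, *Klf8*, *Klf12*, *Klf15*, *Sp5*, *Sp7*, *Sp8* and *Sp9* were below the filter. *Klf8*, the gene described as repressed by KLF3, stood at 0.667 ± 0.115 FPKM in control and 0.827 ± 0.0174 FPKM in CITED2-deficient libraries, on 29 to 67 fragments. *Klf14*, *Klf17* and *Sp6* were not analysed here.

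Genes around the KLFs were read from lists of known partners, regulators and targets, by counts beside the background of 16.7% higher and 34.6% lower. Of 11 KLF coactivators and corepressors, 2 were higher and 5 lower, with a median log2 fold change of -0.07 against -0.10 for all tested genes. The acetyltransferase genes *Ep300* (0.20, limma adjusted p = 0.00863) and *Kat2b* (0.16, limma adjusted p = 0.0202) were higher. *Kat2b* lost its call without control replicate 1, control replicate 2 or CITED2-deficient replicate 3 (limma adjusted p = 0.0514, 0.0644 and 0.0722). It also lost it with no variance trend (limma adjusted p = 0.0524). The lower ones belong to the SIN3 and histone deacetylase complexes, *Hdac1* (-0.34), *Hdac3* (-0.27), *Hdac2* (-0.24), *Sin3a* (-0.24) and *Sin3b* (-0.20), of which *Sin3b* was not called after median-ratio scaling. *Ctbp1* and *Ctbp2*, the genes of the corepressors used by KLF3, were not called (-0.05 and -0.06, limma adjusted p = 0.246 and 0.284).

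Of 7 ERK5 and MEF2 genes, which act upstream of *Klf2* and *Klf4* in endothelial cells, none was higher and 5 were lower, with a median log2 fold change of -0.14. *Mef2c*, a macrophage MEF2 gene, had the largest change of the list, at 56.9 ± 2.42 FPKM (SD, n = 3) in control and 36.3 ± 2.84 FPKM (SD, n = 3) in CITED2-deficient libraries. *Mef2c* fell by 0.64 on the log2 scale (limma adjusted p = 2.56e-05), and the value for *Mef2a* was -0.26 (limma adjusted p = 0.000548). *Map3k3* lost its call without control replicate 3 or CITED2-deficient replicate 3 (limma adjusted p = 0.0584 and 0.0530). *Mef2d* lost it without control replicate 1 or CITED2-deficient replicate 3 (limma adjusted p = 0.0769 and 0.0685). With quantile normalization *Mef2d* and *Map3k2* were not called (limma adjusted p = 0.0740 and 0.0618), nor was *Mef2d* with no variance trend (limma adjusted p = 0.0659). *Map3k2* (-0.25), *Map3k3* (-0.14) and *Mef2d* (-0.13) were no longer called after median-ratio scaling, while *Mapk7*, the gene of ERK5 itself, was then called higher (0.18, limma adjusted p = 0.0102). Of 4 ubiquitin ligases that act on KLF proteins, 2 were lower, and the median was -0.13. *Wwp1*, a ligase of KLF2, was at 159 ± 2.96 against 101 ± 2.89 FPKM (SD, n = 3 each; log2 fold change -0.64, limma adjusted p = 4.75e-07). *Siah1a* had a log2 fold change of -0.23 (limma adjusted p = 0.0374), which lost its call without any single library except CITED2-deficient replicate 1 (limma adjusted p = 0.0551 to 0.121), with no filter on low values (limma adjusted p = 0.0838) and with the replicate block (limma adjusted p = 0.0667). *Siah1a* was not called after median-ratio scaling or quantile normalization either (limma adjusted p = 0.166 and 0.126). *Fbxw7* (0.19, limma adjusted p = 0.0599) was called higher after median-ratio scaling (0.28, limma adjusted p = 0.0168).

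Genes that share known inducers with KLF genes were more often called higher than lower in each list. Of 6 tested genes of the glucocorticoid list, to which *Klf9* is related as a hormone target, 3 were higher and none was lower, with a median log2 fold change of 0.11. *Sgk1* was at 60.1 ± 1.59 against 118 ± 2.81 FPKM (SD, n = 3 each), with *Errfi1* (0.75) and *Tsc22d3* (0.19) also higher. *Tsc22d3* lost its call without CITED2-deficient replicate 3 (limma adjusted p = 0.0528). The receptor gene *Nr3c1* (0.00, limma adjusted p = 0.981) was not called. Nor were its induced genes *Fkbp5* (0.03, limma adjusted p = 0.866) and *Per1* (-0.01, limma adjusted p = 0.880). All 7 TGF-beta early response genes, the class in which *Klf10* and *Klf11* are placed, changed, 5 higher and 2 lower, with a median of 0.38. *Skil* (0.84) and *Smad7* (0.38), which code for a SMAD corepressor and an inhibitory SMAD, were among those higher, as were *Pmepa1* (1.08) and *Tgif1* (0.31). *Tgfbi* (-0.49) and *Ski* (-0.38) were lower. In control libraries *Pmepa1* was at only 0.973 to 1.11 FPKM, on 33 to 41 fragments. *Pmepa1* (4.48 FPKM), *Smad7* (4.61 FPKM) and *Tgif1* (106 FPKM) were highest in CITED2-deficient replicate 1, the library with the highest stromal sum. *Skil* was highest in CITED2-deficient replicate 2 (35.4 FPKM). Of 14 tested immediate early genes, 8 were higher and 4 lower, with a median of 0.31. The 8 include *Egr3* (0.789 ± 0.177 against 1.90 ± 0.299 FPKM), which passed the filter on low values only through the CITED2-deficient libraries. *Egr3* therefore had to differ and supports no count for this list. *Ier5* (0.71), *Atf3* (0.66) and *Jun* (0.65) were higher, and *Nr4a1* (-1.17), *Ier3* (-0.83), *Fos* (-0.57) and *Ier2* (-0.24) were lower.

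Genes described as KLF targets, in whatever cell type, moved both ways. Of 7 tested genes described as induced by a KLF, 3 were higher and 2 lower, with a median log2 fold change of 0.09. *S1pr1*, the lymphocyte egress receptor that KLF2 induces in T cells, was at 30.8 ± 0.978 against 15.6 ± 0.527 FPKM, a log2 fold change of -0.94 (limma adjusted p = 5.06e-07). *Mrc1*, the mannose receptor gene linked to KLF4 in alternative activation, was lower (-1.76, limma adjusted p = 2.19e-09), from 353 to 104 FPKM. *Itgb7* (1.02), another KLF2 target of lymphocytes, and *Cdkn1a* (1.10), a cell cycle inhibitor induced by KLF4 and KLF6, were among those higher. Of 7 genes described as repressed by a KLF, *Ccl2* (0.91) and *Lgals3* (0.14) were higher, *Hif1a* (-0.33) was lower, and *Klf8*, *F3* and *Il6* were below the filter. *Lgals3* lost its call without control replicate 1, control replicate 3 or CITED2-deficient replicate 3 (limma adjusted p = 0.0717, 0.0621 and 0.0565). The same held with no filter (limma adjusted p = 0.127), quantile normalization (limma adjusted p = 0.814) and no variance trend (limma adjusted p = 0.0729). *Ptgs2*, at 0.388 ± 0.144 against 1.98 ± 0.0946 FPKM (SD, n = 3 each), passed the filter only through the CITED2-deficient libraries, so it had to differ and supports no count for this list.

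**Figure D4:**
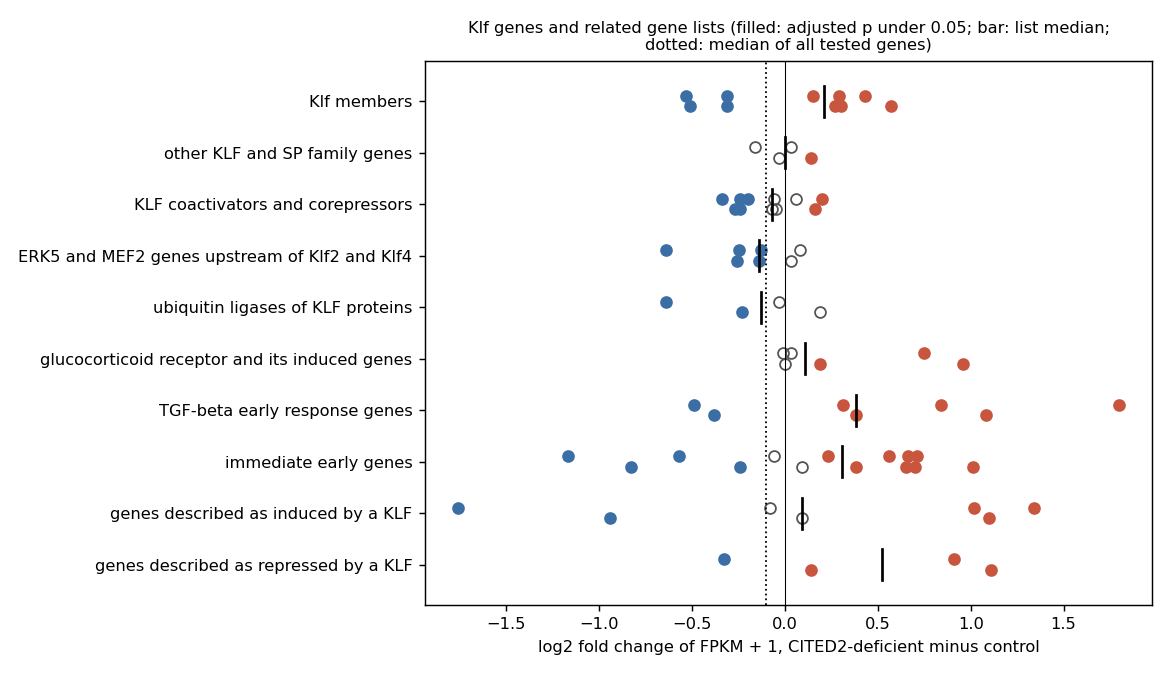
Log2 fold change (CITED2-deficient minus control) of every tested gene in the KLF family and the related lists, with the median of each list and a line at the median of all tested genes, -0.10. The ERK5 and MEF2 list has no gene called higher with the FPKM as deposited (1, *Mapk7*, after median-ratio scaling), and the lists of target genes spread to both sides, down to -1.76 for *Mrc1*.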

How the data were processed

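Total RNA was depleted of ribosomal RNA and made into stranded libraries. The authors mapped reads to mm10 with STAR and deposited 1 FPKM value per gene and library from Cuffdiff with a GENCODE annotation. The sources used here give no tool versions, GENCODE release or strand setting. The FPKM of each library were read as deposited, with no columns left out. Genes averaging 1 FPKM or more were tested as log2(FPKM + 1), a scale that understates changes of low genes, with limma 3.58.1 in R 4.3.3 (variance trend, Benjamini-Hochberg over all 11687 tested genes, threshold 0.05). The Cuffdiff test needs alignments and was not run.

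Fragment numbers were recovered with mean transcript lengths from GENCODE vM21 for 22239 genes, of which 96.1% were whole to within 0.02 in all libraries. They gave the depth and were also tested with limma-voom after rounding. Replicates differed by more than counting noise (chi-square per gene 2.26 to 5.99 on average), so none was treated as a duplicate. In simulated libraries (11616 genes, 200 changed, 3 against 3) the fit found 82.0% of 1.5-fold and 95.0% of 2-fold changes, with 4.84% false calls. Where no gene was changed it called 0 of 11607 genes. The simulations gave every gene the same relative noise beyond counting, equal in both groups. They also changed far fewer genes than the 51.3% called here, so these rates may not hold for the real libraries.

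The 10 KLF genes and all lists were chosen with earlier results of these data known. Named genes were the 10, every tested KLF or SP gene, *Cited2*, and in each other list the 3 smallest adjusted p plus genes needed for counts of 5 or fewer. Some genes under this rule are counted in their lists but not reported here. *Ctbp1*, *Ctbp2*, *Mapk7*, *Fbxw7*, *Nr3c1*, *Fkbp5*, *Per1*, *Egr3*, *Arg1*, *Sp7* and single markers were named after their values were seen. Alternatives were pseudocounts of 0.1 and 0.5, other filters, median-ratio and quantile scaling, no trend, array weights, limma-voom, a replicate block and each library left out in turn. Ranks and the *Klf4* to *Klf2* ratio by the longest transcript were added after seeing the data.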

Additional observations from a re-analysis of the deposited data

How the results depend on the processing

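Of 16 alternatives, none turned the direction of a KLF gene. *Klf7* lost its call under 6 of them, as given with its values, and was not tested at a mean FPKM of at least 5. The other 9 KLF genes were called under every alternative. With the replicate number as a block, 5 KLF genes were called higher and 4 lower. The labels do not say whether same-numbered libraries belong together. Their deviations from the group means correlated at only 0.01, 0.01 and 0.04, which cannot decide it. Leaving out each library in turn gave 5 to 6 KLF genes higher and 4 lower. Over all tested genes, 2576 were called lower after median-ratio scaling, against 4044 with the FPKM as deposited. The sign of *Sp1* turned with median-ratio scaling (0.07), with quantile normalization (0.00) and without CITED2-deficient replicate 3 (0.01), and left-out libraries gave -0.05 to 0.01. *Sp2* turned without CITED2-deficient replicate 1 (-0.01), with a range of -0.01 to 0.07 over left-out libraries. Neither was called in any of these. The cause was not tested. Depth limits *Klf7* most, at 212 to 462 fragments per library, and the 5 listed *Klf* genes under 1 FPKM, tested with no filter, gave a limma adjusted p of 0.335 for *Klf8* to 0.473 for *Klf15*.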

Other observations

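*Sp7*, the osteoblast factor of the SP family, was at 0.130, 0.0570 and 0.182 FPKM in control libraries and at 1.45, 0.109 and 0.378 FPKM in CITED2-deficient libraries, on 75, 5 and 20 fragments in the latter. CITED2-deficient replicate 1, the highest, also had the highest sum of stromal markers. *Arg1*, an alternative activation gene linked to KLF4, was at 1.82, 1.52 and 1.39 FPKM in control and at 0.450, 0.152 and 0.307 FPKM in CITED2-deficient libraries. It was below the filter on low values and rested on 3 to 30 fragments. With no filter its log2 fold change was -0.99 (limma adjusted p = 0.00138). *Klf9* over *Klf16*, a pair of the SIN3-binding group chosen after its values were seen, was 0.434, 0.403 and 0.404 in control libraries and 0.800, 0.920 and 0.764 in CITED2-deficient libraries. *Klf6* over *Klf13*, the ratio of the pair with the highest FPKM, was 3.37, 3.30 and 3.21 in control and 3.55, 3.73 and 3.62 in CITED2-deficient libraries.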
